A study of Mus musculus with 6 samples.

Results

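DNA is copied once per cell cycle by a machinery whose parts are made and used in order. In late mitosis and G1 the origin recognition complex, Cdc6 and Cdt1 load the ring of Mcm proteins onto origins, which licenses them. In S phase Cdc45 and the GINS complex turn the ring into an active helicase, primase and the alpha, delta and epsilon polymerases make DNA, and the Pcna clamp, its loaders, a flap nuclease and a ligase finish the strands. Enzymes of nucleotide synthesis supply the precursors, and E2F transcription factors together with cyclin E drive many of these genes at the G1 to S transition. In cycling blood progenitors such transcripts are abundant, and they decline as cells leave the cycle during terminal myeloid differentiation.

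Transcript levels of 50 such genes were followed in mouse 32D cells, from which 6 RNA libraries were sequenced. The genes were chosen by symbol for these roles, with earlier results of these data known. All 50 were found among the 47606 genes of each library. 32D is a myeloid line that grows in interleukin 3 (IL3, 1 ng/mL in all groups, per the labels). The groups were cells with dCas9-KRAB and guide sg2 (2 libraries), dCas9-KRAB and guide sg5 (2 libraries), and dCas9-KRAB with an empty vector (EV, 2 libraries). dCas9-KRAB is a Cas9 that cannot cut, fused to a repressor domain, so the EV cells carry the repressor too. All cells received lentivirus and a week of puromycin, per the labels' protocols, and the study sets the guides against EV to ask about an enhancer of Cebpe, a transcription factor gene of granulocyte differentiation. No guide sequence is given by the labels, so none is shown. Each group has 1 library numbered 1 and 1 numbered 2. The labels say neither what the number marks nor that the libraries of a group come from separate cultures, so p-values measure the spread between these libraries, which may be technical.

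The title of the second sg5 library names sg5, while its source name and genotype name sg2. It is counted as sg5 by its title, and the guide comparisons are also given with it counted as sg2. Implied depth lay between 31100000 and 44700000 fragments, and 21239 to 21867 genes were above 0 per library. The lowest value of any of the 50 genes was 5.41 FPKM (Orc1 in sg5 number 2), which corresponds to about 628 fragments, so counting error was small for all of them. Cebpe stood at 14.4 and 18.7 FPKM in sg2, at 19.4 and 22.7 FPKM in sg5, and at 42.0 and 100.4 FPKM in EV (numbers 1 and 2 of each). Of the myeloid markers, Prtn3 ranged between 234 and 372 FPKM, Spi1 between 103 and 137 FPKM and Ptprc between 85.5 and 105 FPKM. Elane (1.40 to 2.50 FPKM) and Cd34 (0.19 to 0.33 FPKM) were low in every library. Kit was listed at 0 in every library, as were Cd3e, Epcam and C1qa.

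FPKM counts fragments relative to transcript length and to library size, so levels can be compared between genes. Averaged over the 6 libraries, the 50 genes ranged between 10.7 FPKM (Orc1) and 242 FPKM (Rfc2), with a median of 47.0 FPKM. The clamp gene Pcna, at 222 FPKM, and Dut, at 157 FPKM, followed Rfc2. Mcm6 at 153 FPKM and Mcm3 at 132 FPKM were the most abundant licensing genes. All 50 passed the filter of a mean of at least 1 FPKM that left 12929 genes for testing. They lie on 17 chromosomes, and 18 of them share exon bases with another annotated gene.

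The larger difference in these genes ran between the replicate numbers and not between the guides and EV. In the number 2 libraries 47 of the 50 genes were lower than in number 1 and 1 was higher by limma (Benjamini-Hochberg adjusted p under 0.05, group as covariate). Over all 12929 genes tested, 26.9% were called lower and 20.2% higher in the same comparison. Since the 50 genes were chosen with earlier results of these data known, these shares are a description and not a test. The median log2 difference, number 2 minus number 1 on the log2(FPKM + 1) scale, was -0.64 for the 50 genes and -0.04 for all genes tested. In FPKM, the number 2 libraries held between 36.8% (Tyms) and 122% (Rfc2) of the number 1 level, with a median of 63.5%. In 46 of the 50 genes all 3 number 2 libraries lay below all 3 number 1 libraries, against 34.1% of all genes tested. In 1 gene they all lay above, against 27% of all genes tested. Within the groups the median over the 50 genes was -0.66 in sg2, -0.66 in sg5 and -0.62 in EV. These are bulk libraries, so fewer cells in S phase and less RNA of these genes per cell cannot be told apart.

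**Figure D1:**
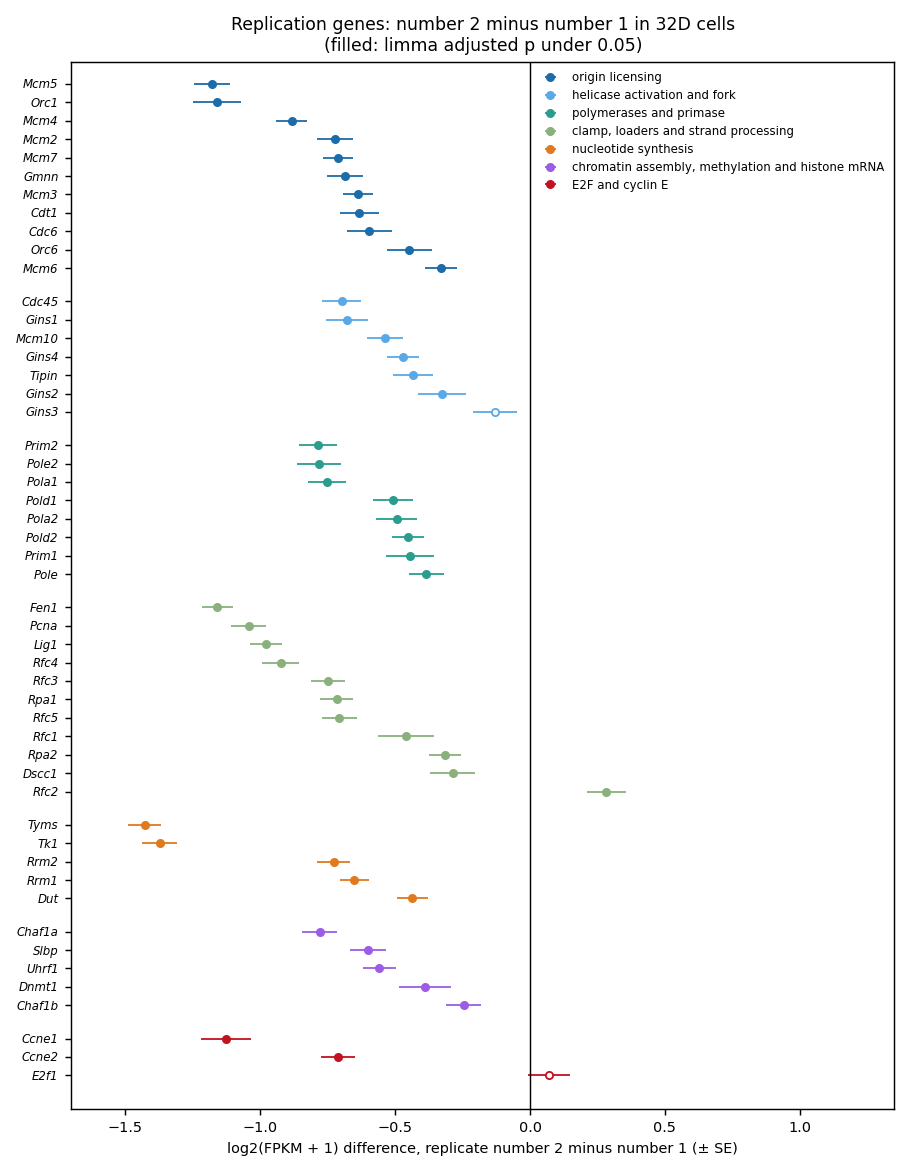
Difference between replicate number 2 and number 1 for each of the 50 genes on the log2(FPKM + 1) scale, with standard errors from limma, ordered by role. Filled points passed the adjusted p of 0.05, and 47 of them lie left of 0, 1 (Rfc2) lies right of it, and Gins3 and E2f1 are open.

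Of the 11 origin licensing genes, all 11 were lower in number 2, with a median log2 difference of -0.69. Mcm5, a subunit of the Mcm ring (chr8:75109569-75128439, plus strand, GRCm38), stood at 47.7, 40.2 and 50.8 FPKM in the number 2 libraries of sg2, sg5 and EV, against 107, 99.3 and 110.0 FPKM in number 1. The number 2 library held 44.6% of the number 1 level in sg2, 40.5% in sg5 and 46.1% in EV, and the log2 difference was -1.18 ± 0.0666 (SE, adjusted p = 0.00181, lower in 3 of 3 groups). Orc1, the largest subunit of the origin recognition complex (chr4:108579423-108614833, plus strand), stood at 6.19, 5.41 and 7.11 FPKM in number 2 and at 15.9, 14.3 and 15.2 FPKM in number 1. It was the least abundant of the 50 genes and fell to 41.3% of its number 1 level, a log2 difference of -1.16 ± 0.0884 (SE, adjusted p = 0.00234).

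Mcm4 stood at 43.4, 42.1 and 44.9 FPKM in number 2 (sg2, sg5 and EV) and at 80.7, 80.2 and 82.1 FPKM in number 1. Mcm7 stood at 82.1, 76.9 and 88.7 FPKM in number 2 and at 136, 129 and 141 FPKM in number 1. The log2 differences of the 6 Mcm subunits, which assemble in equal copies, ran between -1.18 (Mcm5) and -0.33 (Mcm6). Mcm6 stood at 132, 128 and 145 FPKM in number 2 and at 174, 161 and 175 FPKM in number 1, with a difference of -0.33 ± 0.0592 (SE, adjusted p = 0.0125). Mcm2 (-0.72) and Mcm3 (-0.64) lay between Mcm5 and Mcm6. Orc6, the smallest subunit of the origin recognition complex, stood at 24.7, 28.5 and 30.3 FPKM in number 2 and at 38.5, 38.1 and 37.9 FPKM in number 1. The loading factors Cdt1 (-0.63) and Cdc6 (-0.60) and the Cdt1 inhibitor Gmnn (-0.69) moved in the same direction.

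**Figure D2:**
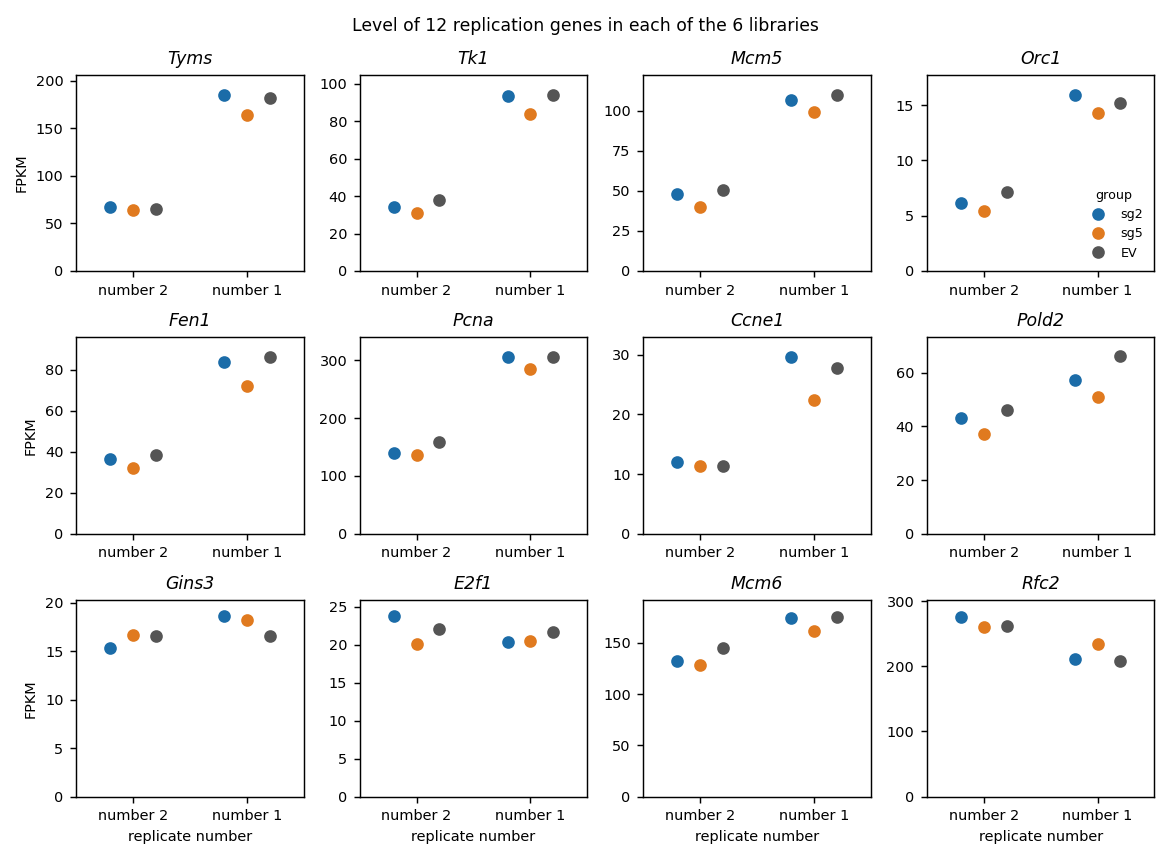
FPKM in each of the 6 libraries for 12 of the 50 genes, on linear axes that start at 0, with 1 point per library and sg2, sg5 and EV in turn within each replicate number. The number 2 points of Tyms, Tk1, Mcm5, Orc1, Fen1, Pcna and Ccne1 lie far below those of number 1, Rfc2 runs the other way, and Gins3 and E2f1 overlap.

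Of the 7 genes of helicase activation and the fork, 6 were lower in number 2, with a median of -0.47. Gins1 stood at 14.5, 12.2 and 14.7 FPKM in number 2 and at 25.9, 20.2 and 21.9 FPKM in number 1. Gins1 to Gins4 encode the 4 subunits of the GINS complex, and their log2 differences ran between -0.68 (Gins1) and -0.13 (Gins3). Gins2 stood at 32.2, 30.4 and 33.8 FPKM in number 2 and at 45.1, 33.4 and 44.0 FPKM in number 1, so sg5 number 1 lay below EV number 2. Gins2 shares 2758 exon bases with the antisense gene Gse1, so its value is uncertain. Gins3 stood at 15.3, 16.6 and 16.6 FPKM in number 2 and at 18.6, 18.2 and 16.6 FPKM in number 1, and it did not pass the test (log2 difference -0.13 ± 0.0809, adjusted p = 0.245). Cdc45, which joins GINS on the Mcm ring, differed by -0.70, Mcm10 by -0.54 and Gins4 by -0.47. Tipin, the partner of Timeless in fork protection, stood at 75.8, 84.4 and 81.1 FPKM in number 2 and at 112, 104 and 111 FPKM in number 1.

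All 8 polymerase and primase genes were lower in number 2, with a median of -0.50. Pold2, an accessory subunit of polymerase delta, stood at 43.1, 37.3 and 46.2 FPKM in number 2 and at 57.4, 51.0 and 66.3 FPKM in number 1. Pold1, its catalytic subunit, stood at 42.6, 32.8 and 41.3 FPKM in number 2 and at 57.0, 52.1 and 57.2 FPKM in number 1. The differences of both delta subunits were close, at -0.45 for Pold2 and -0.51 for Pold1. Pole, the catalytic subunit of polymerase epsilon, stood at 13.3, 13.8 and 15.7 FPKM in number 2 and at 17.4, 19.1 and 20.3 FPKM in number 1. Pola2, the regulatory subunit of polymerase alpha, stood at 25.4, 26.4 and 29.2 FPKM in number 2 and at 39.5, 37.6 and 38.0 FPKM in number 1. The differences in this group ran between -0.38 (Pole) and -0.79 (Prim2, the large primase subunit).

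Of the 11 genes of the clamp, its loaders and strand processing, 10 were lower and Rfc2 was higher, with a median of -0.72. Fen1, the nuclease that trims flaps of Okazaki fragments (chr19:10199132-10204169, minus strand), stood at 36.7, 31.9 and 38.2 FPKM in number 2 and at 84.0, 72.3 and 86.1 FPKM in number 1 (log2 difference -1.16 ± 0.0567, adjusted p = 0.00171). Lig1, the ligase that joins those fragments, stood at 37.4, 36.2 and 40.2 FPKM in number 2 and at 75.6, 74.0 and 77.1 FPKM in number 1. Pcna (chr2:132249162-132253314, minus strand) stood at 140.3, 135 and 159 FPKM in number 2 and at 306, 285 and 305 FPKM in number 1. The number 2 level as a share of number 1 was 44.1% for Fen1, 50.2% for Lig1 and 48.5% for Pcna. Pcna has a processed pseudogene, Pcna-ps2, that is 99.2% identical over 781 bases, so how fragments were divided between them is uncertain. Pcna-ps2 stood at 35.0, 40.7 and 43.6 FPKM in number 2 and at 86.0, 83.5 and 83.5 FPKM in number 1, and the sum of both was at 48.2% in number 2.

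The clamp loader is a ring of 5 subunits, Rfc1 to Rfc5, and Rfc2 was opposite in sign to the other 4. Rfc2 (chr5:134581366-134601805, plus strand) stood at 276, 259.9 and 262 FPKM in number 2 and at 212, 235 and 209 FPKM in number 1, so all number 2 libraries were above all number 1 libraries (log2 difference 0.28 ± 0.0715, adjusted p = 0.0314). Rfc4 stood at 27.7, 29.5 and 27.8 FPKM in number 2 and at 53.2, 53.3 and 57.6 FPKM in number 1. Rfc1, the large subunit, stood at 28.0, 32.3 and 38.1 FPKM in number 2 and at 45.8, 44.7 and 45.01 FPKM in number 1. Rfc3 (-0.75) and Rfc5 (-0.71) moved like Rfc4 (-0.92). Rfc5 shares 499 exon bases with the antisense gene Wsb2, so its value is uncertain. Rfc2 overlaps the antisense gene Lat2, a membrane adaptor of myeloid and mast cells, over 952 exon bases, and it is not stated that strand was used in counting. Lat2 stood at 552, 521 and 394 FPKM in number 2 and at 205, 247 and 173 FPKM in number 1, so the value of Rfc2 is uncertain and the part of Lat2 in it was not tested. In FPKM, Rfc2 was several times higher than any other loader subunit in every library. The single-strand binding proteins Rpa1 (-0.72) and Rpa2 (-0.32) and the alternative loader subunit Dscc1 (-0.29) were lower.

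All 5 genes of nucleotide synthesis were lower, with a median of -0.73, and this role held the 2 genes with the largest differences of the 50. Tyms, thymidylate synthase (chr5:30058202-30073617, minus strand), stood at 66.9, 63.6 and 64.6 FPKM in number 2 and at 185, 164 and 182 FPKM in number 1. It averaged 65.1 ± 1.7 FPKM in number 2 and 177 ± 11.5 FPKM in number 1 (SD, n = 3 each). That SD is over the sg2, sg5 and EV libraries of a number, which are not replicates of one condition. The log2 difference of Tyms was -1.43 ± 0.0606 by limma (SE, adjusted p = 0.00156). Tk1, the cytosolic thymidine kinase (chr11:117815526-117826092, minus strand), stood at 34.1, 31.1 and 38.0 FPKM in number 2 and at 93.7, 83.9 and 94.0 FPKM in number 1 (log2 difference -1.37 ± 0.0638, adjusted p = 0.00167). Both make thymidine monophosphate, by the de novo and the salvage route. Rrm2, the small subunit of ribonucleotide reductase, stood at 44.8, 43.5 and 46.9 FPKM in number 2 and at 76.4, 69.8 and 80.0 FPKM in number 1. Rrm1, its large subunit, was lower by a similar amount (-0.65 against -0.73 for Rrm2). Dut, which removes dUTP, stood at 133, 125 and 142 FPKM in number 2 and at 187, 164 and 193 FPKM in number 1, the smallest difference of the 5 (-0.44).

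All 5 genes of chromatin assembly, maintenance methylation and histone mRNA were lower, with a median of -0.56. Uhrf1, which recruits Dnmt1 to newly copied DNA, stood at 95.5, 80.0 and 92.3 FPKM in number 2 and at 134, 120.3 and 141 FPKM in number 1. Slbp, which binds histone mRNA, stood at 70.8, 70.0 and 78.4 FPKM in number 2 and at 114, 109 and 110.1 FPKM in number 1. Chaf1a and Chaf1b are subunits of chromatin assembly factor 1. Chaf1a differed by -0.78, and Chaf1b by -0.25, at 51.4, 50.04 and 55.7 FPKM in number 2 and at 64.3, 56.1 and 66.9 FPKM in number 1. Chaf1a shares 4648 exon bases with the antisense gene Ubxn6, which makes its value uncertain.

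Of the E2F and cyclin E genes, both cyclins were lower and E2f1 did not pass the test. Ccne1, which activates Cdk2 at the start of S phase, stood at 12.03, 11.4 and 11.3 FPKM in number 2 and at 29.6, 22.5 and 27.9 FPKM in number 1 (log2 difference -1.13 ± 0.0919, adjusted p = 0.00249). Ccne2 stood at 17.3, 18.2 and 21.0 FPKM in number 2 and at 30.4, 30.1 and 33.6 FPKM in number 1. Ccne2 shares 609 exon bases with the antisense gene Ints8, so its value is uncertain. Ints8 stood at 17.5, 22.2 and 18.2 FPKM in number 2 and at 25.5, 22.5 and 26.4 FPKM in number 1, and its part in Ccne2 was not tested. E2f1, a transcription factor that activates many replication genes, stood at 23.8, 20.1 and 22.0 FPKM in number 2 and at 20.4, 20.4 and 21.7 FPKM in number 1, so the numbers overlapped (log2 difference 0.07 ± 0.077, adjusted p = 0.492).

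Under every alternative setting, among them leaving out each library, 36 of the 50 genes stayed past the threshold. With 1 library left out, 37 to 42 of the 50 were called, and Rfc2 was called only where the library left out was from sg5. Dividing by median-ratio factors moved the median of the 50 genes to -0.59 and that of all genes to 0.0068, and it ended the calls of Chaf1b, Dscc1 and Gins2. Other features also differed with the number. Genes shorter than 200 nt held 21.5%, 15.4% and 16.4% of the summed FPKM in number 2 (sg2, sg5 and EV) and 9.03%, 9.67% and 6.77% in number 1. All 5 mast cell and basophil markers together summed to 3360, 3566 and 3073 FPKM in number 2 and to 2257, 3160 and 1553 FPKM in number 1. The monocyte and macrophage markers summed to 169, 155 and 151 FPKM in number 2 and to 105, 85.3 and 99.0 FPKM in number 1. The short gene share and both marker sums were higher in number 2 within each group. So was the fibroblast and epithelial sum, at no more than 2.08 FPKM, and the sums of the remaining marker lists went both ways. Most of the mast cell and basophil sum was Fcer1a, at 2520, 2767 and 2412 FPKM in number 2 and at 1733, 2495 and 1081 FPKM in number 1. Cpa3 and Gata2 were also higher in number 2 within each group. Ms4a2 was lower in number 2 in sg5 (6.68 against 10.0 FPKM) and in EV (4.90 against 6.13 FPKM), and Mcpt8 was lower in sg5 (3.51 against 4.77 FPKM). Mpo, a granule enzyme of myeloid progenitors, stood at 12.3, 14.8 and 13.0 FPKM in number 2 and at 41.5, 123 and 151 FPKM in number 1. Cebpa, a myeloid transcription factor, stood at 216, 208 and 136 FPKM in number 2 and at 44.3, 70.2 and 32.2 FPKM in number 1. Among the other progenitor markers, Csf2rb stood at 97.1, 95.1 and 69.5 FPKM in number 2 and at 163, 197 and 139 FPKM in number 1. Spi1 and Ptprc were also lower in number 2 within each group, by less. Itgam, in the more abundant of its entries, was higher, at 65.5, 69.2 and 93.5 FPKM against 38.7, 51.6 and 43.2 FPKM. Prtn3, Elane, Ctsg and Cd34 did not move in the same direction in every group. The part of these features in the differences of the replication genes was not tested.

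The promoters of 39 of the 50 genes were found in the RefSeq table (GRCm38.p6), and the 250 bases before the listed start were searched on both strands. E2F words were TTTCCCGC, TTTCGCGC, TTTGCCGC and TTTGGCGC, the letters to which E2F factors are known to bind. They were present in 8 of 39 promoters (20.5%), namely those of Cdc6, Gins3, Mcm5, Mcm6, Mcm7, Orc1, Pola1 and Rfc3. The same words were present in 1.91% of the 27025 promoters in the table and in 3.63% of the 8578 promoters of genes that were tested. The CCAAT box, the letters CCAAT, was present in 24 of 39 promoters (61.5%), against 34.5% of all promoters and 36.9% of those of tested genes. The word TTTGAA of the cell cycle genes homology region (CHR) was present in 5 of 39 (12.8%), against 16.3% and 10.7%. A short run of bases just after the RefSeq start was found in a GENCODE transcript of the gene for 27 of 39. That does not show that the starts coincide. For 21 of 39 the 250 bases overlapped the GENCODE gene, so part of what was searched may be transcribed. Of the 8 promoters with an E2F word, the words of Cdc6, Gins3, Mcm7, Orc1 and Rfc3 lie at least partly within the GENCODE gene, and those of the other 3 lie upstream of it. These 3 are the windows shown, 5′ to 3′ on the strand of the gene, with E2F words in capitals. The capitals of Mcm5 are 2 overlapping words on opposite strands, and Mcm6 has 3 words in its promoter, 1 of them in the window, which also holds a CCAAT box on the other strand.
Mcm5, chr8:75109334-75109393, plus strand: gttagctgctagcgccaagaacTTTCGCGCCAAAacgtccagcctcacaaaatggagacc
Mcm6, chr1:128359719-128359778, minus strand: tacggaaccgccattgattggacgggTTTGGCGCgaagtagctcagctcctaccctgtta
Pola1, chrX:93632260-93632319, minus strand: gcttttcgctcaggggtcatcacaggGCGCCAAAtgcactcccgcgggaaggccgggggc

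The 8 genes with an E2F word differed by a median of -0.73 between the numbers (-1.18 for Mcm5 to -0.13 for Gins3), and the 31 without by a median of -0.64 (-1.43 for Tyms to 0.07 for E2f1). Both ranges overlapped widely, and the 2 genes with the largest differences, Tyms and Tk1, held neither an E2F word nor a CCAAT box in the window searched. A word is a match of letters in this window and does not show binding.

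The other genes of the pathway were listed by role, 94 genes of which 93 were tested. In number 2, 43 of them were lower and 16 were higher by limma, with a median log2 difference of -0.30. Of all genes tested, 26.9% were lower and 20.2% were higher. Of 23 other genes of the fork, polymerases and strand processing, 14 were lower and 1 was higher (median -0.48). Of 29 other genes of nucleotide synthesis, 17 were lower and 7 were higher (median -0.47). Of 15 other genes of licensing and firing, 5 were lower and 1 was higher (median -0.21). Of 26 tested genes of G1 to S control, 7 were lower and 7 were higher (median -0.08), which is close to the shares of all genes tested.

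Values from these lists were chosen after they were seen, unless they are among the genes named for the guides further on. Timeless, the partner of Tipin, differed by -0.97, the fork gene Exo1 by -1.13 and the histone chaperone Nasp by -1.49. Impdh2, the main enzyme of guanine nucleotide synthesis in dividing cells, stood at 61.3, 53.0 and 64.3 FPKM in number 2 (sg2, sg5 and EV) and at 183, 159 and 191 FPKM in number 1. Its paralog Impdh1 went the other way, at 45.9, 41.1 and 35.6 FPKM in number 2 and at 27.0, 21.1 and 25.9 FPKM in number 1. Some other pairs of related enzymes, picked after their values were seen, were opposed and others were not. Rrm2b, the p53-induced small subunit of ribonucleotide reductase, was higher (0.66), while Rrm2 was lower. Tk2, the mitochondrial thymidine kinase, was higher (0.93), while Tk1 was lower. The cytosolic serine hydroxymethyltransferase Shmt1 was higher (0.35), and the mitochondrial Shmt2 was lower (-1.23). Both members were lower for the nucleoside diphosphate kinases Nme1 (-0.95) and Nme2 (-2.63), and for the folate enzymes Mthfd1 (-0.91) and Mthfd2 (-0.80).

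Among the genes of G1 to S control, Cdkn1a, an inhibitor of cyclin-dependent kinases, stood at 539.9, 505 and 394 FPKM in number 2 and at 220.3, 223 and 242 FPKM in number 1. Cdk4, a kinase that starts the G1 to S step, stood at 189, 179 and 214 FPKM in number 2 and at 544, 488 and 532 FPKM in number 1. The inhibitor higher and the kinase lower were seen in 3 of 3 groups. The inhibitor Cdkn2d (0.79) and the retinoblastoma gene Rb1 (0.76) were higher, as were the kinase Cdk6 (0.54), the D-type cyclin Ccnd2 (0.38) and E2f5 (0.85). The E2F partner Tfdp1 (-0.75) and E2f4 (-1.02) were lower. The inhibitors Cdkn1b (-0.16, adjusted p = 0.103) and Cdkn2c (0.13, adjusted p = 0.234) did not pass the test.

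**Figure D3:**
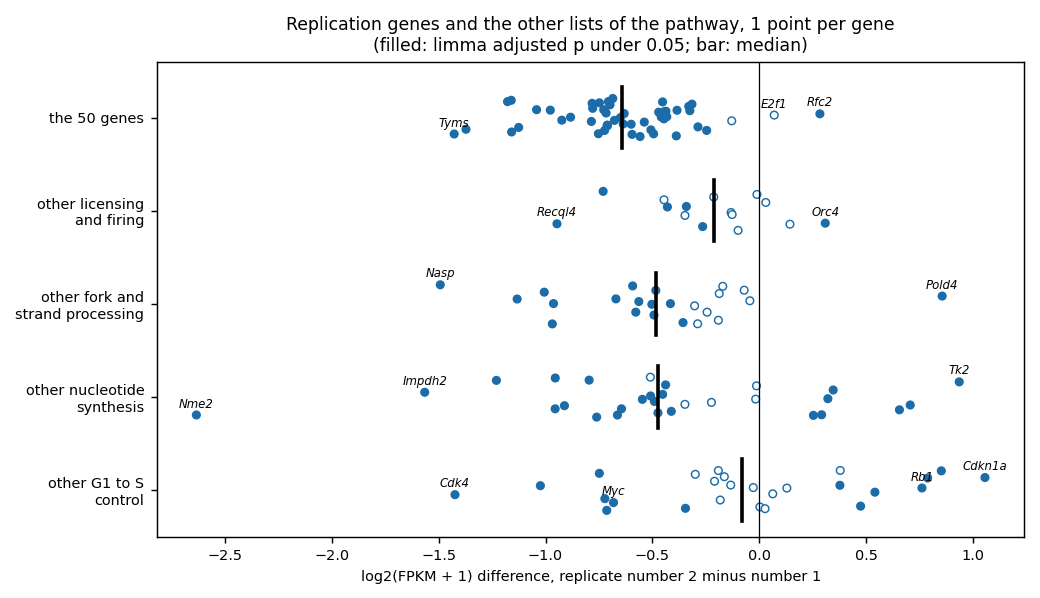
Log2(FPKM + 1) difference, number 2 minus number 1, for each of the 50 genes and for each of the 93 other pathway genes tested, by list, with filled points past the adjusted p of 0.05 and a bar at the median. The medians run from -0.64 for the 50 genes to -0.08 for G1 to S control.

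The guides were then set against EV, the comparison of the study. By limma 0 of the 50 genes passed in the guides (0% of 12929 genes tested passed, and 169 had an unadjusted p under 0.05, none of them among the 50). The libraries of the guides did not all lie on one side of both EV libraries for any of the 50 genes, against 2.56% of all genes below and 2.54% above. In 46 of the 50 genes all number 2 libraries lay below all number 1 libraries, and in 1 gene all lay above. In those genes the numbers alone kept the guide libraries from lying on one side of EV, so this count says nothing about the guides there. The differences were small and mostly of one sign. On the log2(FPKM + 1) scale 46 of the 50 were below 0, against 51.3% of all genes tested. The median was -0.08 (-0.0046 for all genes tested), and the range ran between -0.24 (Pold2) and 0.06 (Rfc2). The replicate numbers spread the libraries of each group far more than this, so the standard errors were wide.

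Pold2 stood at 57.4 and 43.1 FPKM in sg2, at 51.0 and 37.3 FPKM in sg5, and at 66.3 and 46.2 FPKM in EV (numbers 1 and 2 of each). Within each number both guide libraries were below EV, and the log2 difference was -0.24 ± 0.231 (SE, adjusted p = 1.00). With the replicate number as a block the same difference had a standard error of 0.0905 and an adjusted p of 0.813. With that block 5 genes passed (0.0387% of those tested, with 739 at an unadjusted p under 0.05), and 0 of the 50 did. At an unadjusted p under 0.05 were 3 of the 50 (Ccne2, Pola1 and Pold2), against 5.72% of all genes tested. Leaving out 1 library without the block moved the median of the 50 genes between -0.37 (without EV number 2) and 0.22 (without EV number 1). With the block it stayed between -0.11 and -0.067.

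The next smallest p-values after Pold2 were those of Chaf1b (-0.14 ± 0.157), Pole (-0.17 ± 0.196), Gins2 (-0.14 ± 0.204) and Rfc1 (-0.16 ± 0.238). Chaf1b and Pole were below EV with both guides in both numbers, as the values per library above show. Ccne2 (-0.19 ± 0.322) had the largest difference of its role, Tk1 (-0.15 ± 0.599) that of nucleotide synthesis and Mcm5 (-0.15 ± 0.52) that of licensing. For each of these genes the standard error without the block was larger than the difference, and the adjusted p was 1.00. With the replicate number as a block each standard error was smaller than the difference, from 0.0638 (Ccne2) to 0.126 (Gins2). None passed by limma with the block, where the adjusted p ran between 0.813 (Pole and Ccne2) and 0.906 (Gins2).

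Each guide was also set against EV on its own, and these comparisons share the EV libraries. Of the 50 genes, 0 passed in sg2 against EV, where 0.00773% of the genes tested passed by limma (1 gene, with 150 at an unadjusted p under 0.05). The median of the 50 was -0.05 in that comparison, and 36 were below 0, against 49.1% of all genes tested. In sg5 against EV 0 of the 50 passed, as did 0 of all genes tested (176 at an unadjusted p under 0.05). Here the median of the 50 was -0.13, and 48 were below 0, against 52.6% of all genes tested.

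Within the replicate numbers, the medians of sg2 minus EV were -0.09 in number 2 and -0.0071 in number 1, and those of sg5 minus EV were -0.15 in number 2 and -0.10 in number 1. In 37 of the 50 genes sg5 was below EV in both numbers, against 29.6% of all genes tested. In 18 of the 50 sg2 was below EV in both numbers, against 23.8% of all genes tested. Dut stood at 164 and 125 FPKM in sg5 and at 193 and 142 FPKM in EV (log2 difference -0.21 ± 0.287, and ± 0.0703 with the replicate number as a block). The genes with the smallest p-values in sg2 against EV were Pole, Rfc1, Pold2, Ccne2 and Orc6, and in sg5 against EV they were Pold2, Gins2, Chaf1b, Dut and Pold1. With the block 8 of the 50 had an unadjusted p under 0.05 in sg5 against EV (Uhrf1, Fen1, Dut, Tk1, Mcm2, Mcm5, Pola1 and Pold2), as did 1039 of the 12929 genes tested (8.04%), and the smallest adjusted p among the 8 was 0.519 (Pold2). In sg2 against EV the block gave 1 of the 50 (Pole), against 556 of all genes tested (4.3%).

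**Figure D4:**
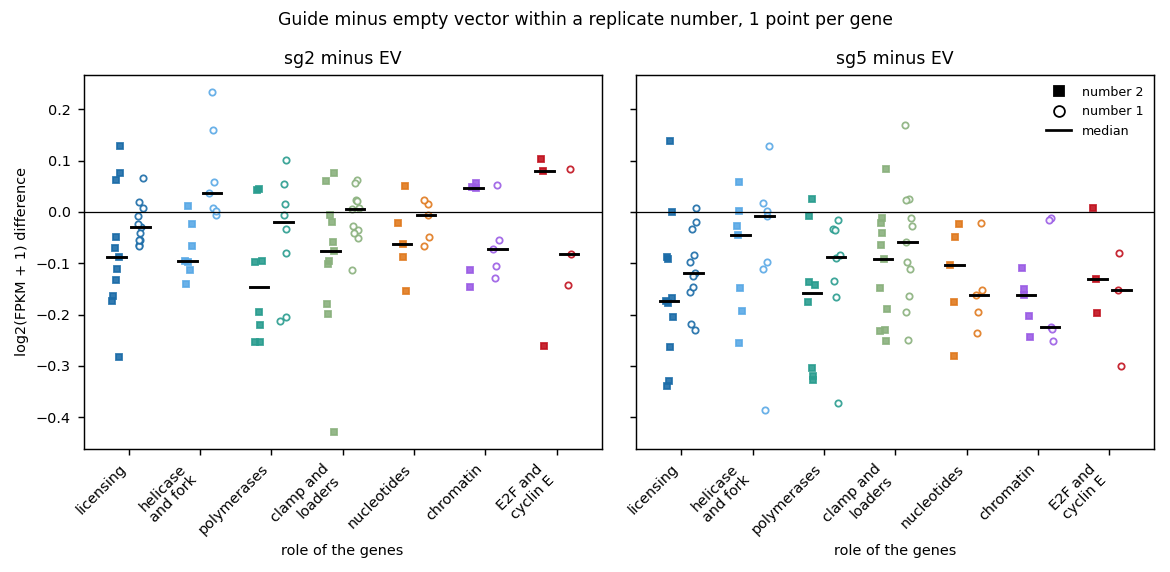
Log2(FPKM + 1) difference from EV of the same replicate number for each of the 50 genes by role, with sg2 on the left and sg5 on the right, squares for number 2, circles for number 1 and a bar at the median of the role. Over all 50 genes the medians are -0.09 in number 2 and -0.0071 in number 1 for sg2, and -0.15 in number 2 and -0.10 in number 1 for sg5.

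Between the guides, sg5 against sg2, 0 of the 50 and 0 of all genes tested passed by limma (111 at an unadjusted p under 0.05). The median of the 50 was -0.08, and 36 were below 0, against 52.8% of all genes tested. In 30 of the 50 genes sg5 was below sg2 in both numbers, against 28.1% of all genes tested. Gins2 stood at 33.4 and 30.4 FPKM in sg5 and at 45.1 and 32.2 FPKM in sg2. Gins1 stood at 20.2 and 12.2 FPKM in sg5 and at 25.9 and 14.5 FPKM in sg2. Pold1 stood at 52.1 and 32.8 FPKM in sg5 and at 57.0 and 42.6 FPKM in sg2. The sg5 library was lower in both numbers for these 3 genes, and E2f1 was lower in number 2 only. With the block 5 of the 50 had an unadjusted p under 0.05 (Uhrf1, Fen1, Gins1, Mcm2 and Pold1), each with an adjusted p of 0.854, as did 684 of all genes tested (5.29%).

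These guide values rest on which group the second sg5 library belongs to. With that library counted as sg2, the median of the 50 genes was -0.17 in sg2 against EV, 0.20 in sg5 against EV and 0.38 in sg5 against sg2, and 0 of the 50 passed in each. In that arrangement sg5 has 1 library, a number 1 library, so its comparison with the other groups also compares the numbers.

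The guide difference was also compared between the numbers (number 2 minus number 1). By limma 0 of the 50 and 0 of all genes tested passed (541 at an unadjusted p under 0.05, none of them among the 50), and the median of the 50 was -0.05. Rfc1 had the smallest p, with a log2 value of -0.34 ± 0.169 (SE, adjusted p = 1.00), followed by Slbp, Pola2, Gins3 and Orc1. The neutrophil markers summed to 160 and 141 FPKM in sg2, 196 and 149 FPKM in sg5, and 453 and 689 FPKM in EV (numbers 1 and 2), and their part in the values of the replication genes was not tested.

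Among the 93 other pathway genes tested, 0 passed in the guides against EV. Below 0 were 61 of them, against 51.3% of all genes tested, and their median was -0.04. Myc, a transcription factor that promotes growth and nucleotide synthesis, stood at 25.6 and 15.2 FPKM in sg2, at 19.9 and 12.3 FPKM in sg5, and at 34.5 and 21.1 FPKM in EV. It was lower than EV with both guides in both numbers (log2 difference -0.59 ± 0.328, adjusted p = 1.00). Its adjusted p was 0.576 with the replicate number as a block. Cdca7, a chromatin factor, stood at 61.6 and 37.4 FPKM in sg2, at 49.0 and 39.9 FPKM in sg5, and at 70.4 and 49.1 FPKM in EV. Cdkn1b, an inhibitor of cyclin-dependent kinases, stood at 28.5 and 24.3 FPKM in sg2, at 33.8 and 29.4 FPKM in sg5, and at 25.3 and 24.0 FPKM in EV.

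In nucleotide synthesis, Gart, which carries out 3 steps of purine synthesis, stood at 57.5 and 31.2 FPKM in sg2, at 36.0 and 30.7 FPKM in sg5, and at 65.6 and 35.9 FPKM in EV. Dctd, which makes dUMP by deamination, stood at 7.11 and 5.63 FPKM in sg2, at 5.11 and 5.55 FPKM in sg5, and at 9.43 and 6.46 FPKM in EV. Ctps, the cytidine triphosphate synthase, stood at 19.3 and 14.3 FPKM in sg2, at 13.5 and 13.9 FPKM in sg5, and at 23.5 and 14.3 FPKM in EV. In all 3 genes the number 1 library of sg5 was the lowest of the number 1 libraries. The other genes named by the same rule were E2f6, Rnaseh2c, Pole4, Orc5, Dbf4 and Orc3, with log2 differences between -0.18 (E2f6) and 0.16 (Rnaseh2c). None of these 12 genes passed the test.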

How the data were processed

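RNA of 6 libraries was sequenced, per the labels' protocols with a TruSeq RNA kit on a HiSeq 4000. The authors deposited FPKM values for 47606 genes per library, with no counts. Tools named in the submitters' processing notes are kallisto 0.43.0 and DESeq2, with the builds GRCm38 and mm10 and no roles, and whether strand was used is not given in the sources used here. FPKM scales by library, so a rise of some transcripts lowers the rest. Here symbols were matched to GENCODE M21 for positions and overlaps. The 12929 genes that averaged 1 FPKM or more were taken as log2(FPKM + 1), a scale that understates changes of low genes, and fitted by limma (version 3.58.1, R version 4.3.3) using an intensity trend, Benjamini-Hochberg adjustment over all genes tested and a threshold of 0.05. The script was tested on simulated data. Depth was read from the steps of low values of 752 single-transcript genes over 4000 nt, assuming 200 nt fragments. At the depth taken, 91.9% to 98.6% of the 99 to 147 low values used per library were whole within 0.15 fragments. The depth was chosen for a high share, so this share does not check it. No count test was run. The 50 genes and all lists were chosen with earlier results of these data known.

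The numbers 1 and 2 of the labels were taken to pair the libraries, because deviations from the group means correlated across genes in every pair of groups (r = 0.611 for sg2 with EV, 0.591 for sg5 with EV and 0.583 for sg5 with sg2). This comes from the data, with the labels silent. The fit without a block is the main one. Values per library are given for up to 12 members called in each direction by p, the 5 of smallest p where none was called, the most abundant and the most changed between guides and EV in each role, and up to 3 genes of smallest p in each other list. Alternatives were a pseudocount of 0.1 FPKM, no filter, median-ratio scaling, no trend, the block, no covariate, the other label of the second sg5 library, and leaving out each library. Scaling with the block, and with no covariate, was added after seeing the data. Near-identical copies of the 50 genes were sought with blastn 2.17.0. Protein sequences were not used here.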

Additional observations from a re-analysis of the deposited data

Results flagged for a closer look

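E2f1 was marked because 1 of the 4 guide libraries lay far from the others. It stood at 23.8 FPKM in sg2 number 2 and between 20.1 and 20.4 FPKM in the other 3 guide libraries, against 21.7 and 22.0 FPKM in EV. The gap took 0.895 of the range of the guide libraries. Chance alone marks about 1 in 20 groups in this way where the libraries differ only by chance. The other 49 genes gave no such mark in the guide libraries. In 46 of the 50 genes all number 2 libraries lay below all number 1 libraries. There the guide libraries split by number, so a lone outlier could hardly arise and that rate does not apply.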

How the results depend on the processing

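Without a paired model the guide comparisons called 0 genes for both guides against EV, 1 for sg2, 0 for sg5, and 0 for sg5 against sg2. With the replicate number as a block (paired libraries) they called 5, 3, 2 and 0, and adding median-ratio scaling left the first at 5. With no filter they called 6, 0, 18 and 23, and the test of the guide difference between numbers called 243 (0 with the filter). With no trend these were 4 for the guides against EV and 27 for the difference between numbers, and with the second sg5 library counted as sg2 the call in sg2 against EV was lost (0). In none of these was a gene of the 50 called. The causes were not tested.

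Leaving out 1 library, the guides against EV called 0 to 2 genes (over fits with and without the block) and sg2 against EV called 0. Number 2 against number 1 called 3205 to 4365 genes, against 6089 with all libraries, and 37 to 42 of the 50 genes, against 48, with fewer libraries in each fit. Its median over the 50 genes was -0.59 with median-ratio scaling, with and without the group covariate, and -0.66 to -0.63 with 1 library left out. Without the filter 4614 genes and 42 of the 50 were called.

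Of the 8 named genes for guides against EV, none changed sign with all libraries. With 1 library left out, 7 did in at least 1 fit, with or without the block. Without the block 10 of the 48 values changed sign, and with it 1 of 48 did, that of Rfc1. Ranges over both kinds of fit were -0.50 to 0.011 for Pold2, -0.35 to 0.0025 for Pole, -0.33 to 0.044 for Gins2, -0.33 to 0.0060 for Rfc1, -0.52 to 0.14 for Ccne2, -0.79 to 0.49 for Tk1 and -0.70 to 0.40 for Mcm5. The library without which most turned is EV number 1. E2f1 between the numbers ran from -0.00094 (without either sg2 library) to 0.12. Of the 30 genes named for the numbers, Chaf1b, Gins2, Rfc1 and Rfc2 lost their call under at least 1 setting that kept all libraries. The lowest value of any of the 50 genes rests on about 628 fragments.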
